A study of Mus musculus with 4 samples.

Results

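Interferon response genes are the genes that cells switch on when they sense type I interferons (the interferon alpha and beta family) or interferon gamma. The set described here holds 29 of the 33696 genes of the expression matrices, chosen by name with earlier results of these data known. Each was followed through the main cell classes of the mouse peritoneal cavity under a chow diet (CD) and a high-fat diet (HFD). Cells were washed from the cavity of wild-type mice and sorted for CD45, a surface protein of leukocytes. Per the labels, diets began at 4 weeks of age and lasted 3 months. Droplet single-cell RNA sequencing gave 1 expression library per diet, and a B-cell receptor library was made beside each. The labels do not say how many mice entered a library. A treatment note among them gives the high-fat diet for both groups, and the groups used are those of the sample titles and the series design.

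Type I interferons act through a receptor whose signal leads to a complex with Stat2 and Irf9, which binds interferon-stimulated response elements in promoters. Interferon gamma acts through another receptor, and its signal reaches promoters mainly at gamma-activated sites. Tissue macrophages are known for a steady low level of such genes without infection, and the large peritoneal macrophage, marked by the transcription factor Gata6, is the resident macrophage of this cavity.

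The promoters of 6 members, some lower, 1 higher and some little changed in the HFD macrophage sums, are shown first. They are shown for letters known to bind factors of these pathways. RefSeq promoter windows (build GRCm38.p6, from 250 bases before to 50 after a start site) were found for 19 of the 29 members, as 21 windows. The response element core, GAAA then any 2 bases (NN) then GAAA, searched on both strands, was in 57.1% of the member windows and in 3.44% of all 32851 windows. The gamma-activated site TTCNNNGAA, also searched on both strands, was in 33.3% of member windows and in 8.30% of all windows, and some of its matches overlap the response element core. Both shares describe genes chosen as interferon response genes and not these libraries. The stretches below run 5′ to 3′ on the strand of the gene, with matches to the response element core in capitals; on the opposite strand the core reads TTTC, NN, TTTC. The 6 genes were chosen among members with the core. In the macrophage sums Isg15, Ifit3 and Rsad2 were lower in HFD, the last 2 on the counts of 1 CD barcode described below, Gbp2 was higher, and Bst2 and Oas1a differed little. Members whose windows lack these letters include Oasl2 and Ifi209, which were lower, and Irf7, which was not called, and a match describes letters only.
Isg15, chr4:156200830-156200941, minus strand: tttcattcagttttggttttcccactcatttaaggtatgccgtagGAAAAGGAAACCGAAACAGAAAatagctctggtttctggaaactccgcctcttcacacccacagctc
Ifit3, chr19:34583328-34583461, plus strand: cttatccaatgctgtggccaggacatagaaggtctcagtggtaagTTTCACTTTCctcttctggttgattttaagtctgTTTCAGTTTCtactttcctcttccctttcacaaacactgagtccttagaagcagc
Rsad2, chr12:26456518-26456617, minus strand: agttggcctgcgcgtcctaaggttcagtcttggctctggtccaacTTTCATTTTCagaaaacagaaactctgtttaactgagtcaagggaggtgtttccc
Gbp2, chr3:142620559-142620658, plus strand: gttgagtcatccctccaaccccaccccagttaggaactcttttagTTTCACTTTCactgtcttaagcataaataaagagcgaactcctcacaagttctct
Bst2, chr8:71537542-71537647, minus strand: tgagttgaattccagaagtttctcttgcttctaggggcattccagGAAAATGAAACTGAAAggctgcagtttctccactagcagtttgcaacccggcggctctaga
Oas1a, chr5:120907526-120907590, minus strand: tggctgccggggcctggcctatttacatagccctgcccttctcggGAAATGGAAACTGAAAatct

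Classes were set by markers. Large macrophages held 5 or more UMIs (unique molecular identifiers, each standing for 1 captured transcript) of Adgre1, Prg4, Alox15 and Garnl3 together and 2 or fewer of Folr2 and Cbr2, and T cells held 2 or more of Cd3e, Cd3d and Cd3g. Both were absent from the receptor tables, and B cells were the barcodes present in them, split into those with 0 UMIs of Fcer2a and Cr2 and those with 2 or more. The sums held 1973 CD and 1297 HFD macrophage barcodes, 1026 and 776 T barcodes, 4884 and 2409 B barcodes without Fcer2a or Cr2, and 1143 and 768 with them; all B barcodes were 7112 and 3677. Gata6 stood at 100 and 135 CPM, the count per 1000000 UMIs of the class sum, in macrophages and at 6.98 to 7.79 in all B cells. Siglech, a marker of plasmacytoid dendritic cells, the classic interferon producers, was at 0 in macrophages of both libraries, which allows up to 0.244 CPM in CD and 0.176 CPM in HFD. In B cells without Fcer2a or Cr2 it was at 0 in CD and 0.964 CPM in HFD.

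The libraries differed in ways that touch these genes. Macrophage barcodes held a median of 4664 UMIs in CD and 11734 in HFD. The B-cell gene Cd79a stood at 437 CPM in CD and 105 CPM in HFD macrophages, against 3419 and 3586 in all B cells, and from such markers 14.2% of the CD and 3.01% of the HFD macrophage UMIs were estimated to be B-cell RNA. In T barcodes that estimate was 28.3% in CD and 7.997% in HFD. Barcodes with a UMI of a cycling gene were 4.71% of CD and 24.7% of HFD macrophages. No barcodes were removed as doublets, and 30 barcode sequences occur in both libraries. With 1 library per diet there is no replicate and no test: every interval below is a 95% interval for counting error only, differences between mice are not in it, and a difference between diets is a difference between 2 libraries.

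Each class had its own leading members. For 19 of the 29 members the same class of the 4 had the highest CPM in both libraries. Macrophages led for 6 of these: the RNA sensors Oasl2 and Oas1a, the DNA sensor Ifi204, the membrane proteins Ifitm3 and Bst2, and Rtp4. T cells led for 9, among them Irf1, Zbp1, Gbp4 and Igtp. B cells with Fcer2a or Cr2 led for Stat2, Ifi209 and Ly6e, and B cells without them for Ly6a.

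**Figure D1:**
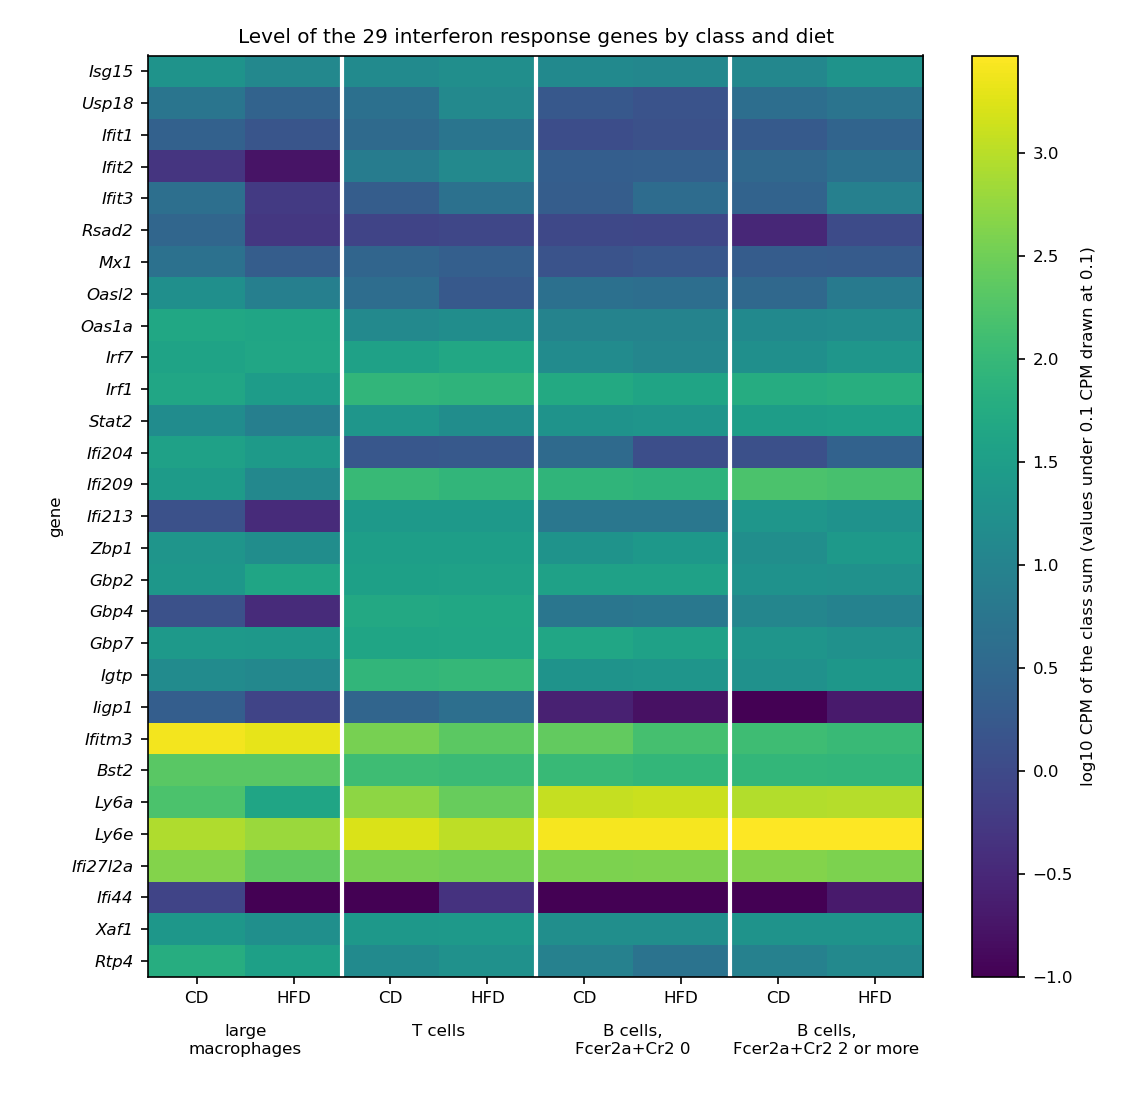
Level of each of the 29 genes (rows) in the CD and HFD sums of 4 classes (columns), as log10 of CPM; colours run from under 0.1 CPM to the highest level. Ifitm3 and Rtp4 stand out in the macrophage columns, Gbp4 and Igtp in the T columns, and Ly6a and Ly6e in the B columns, in both diets.

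In large macrophages most interferon response genes were lower in the HFD library. Of the 29 members, 27 had 20 or more UMIs over both macrophage sums, and 24 of these 27 had a log2 ratio of HFD over CD below 0, against 56.6% of all 12424 genes at that minimum. A member is called lower or higher where its ratio is 1.5-fold or more and its interval lies on 1 side of 1. By that rule 14 of 27 members were lower, against 10.9% of all genes, and 1 was higher, against 5.57%. Of the 14, 4 (Ifi209, Ifi213, Gbp4 and Ly6a) had 50% or more of a macrophage level estimated to come from other classes, and 2 (Ifit3 and Rsad2) were no longer called without the 3 barcodes highest in effector UMIs of each library. The other 8 were Isg15, Usp18, Mx1, Oasl2, Stat2, Iigp1, Ifi27l2a and Rtp4. Of these, Stat2, Iigp1 and Mx1 fell short of 1.5-fold under some alternative settings, with log2 ratios as small as -0.10, -0.46 and -0.54. The median log2 ratio was -0.74 over the members and -0.05 over all genes. Over the 20 members with 100 or more UMIs it was -0.48, beside -0.05 for all genes at that minimum. With equal weight per barcode it was -0.50 over the 27 members, beside -0.06 for all genes. Members that passed the minimum did so on summed counts of both diets, and the 2 that did not, Ifit2 and Ifi44, had 6 and 10 UMIs in CD and 3 and 1 in HFD.

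The group named antiviral effectors, mostly proteins that act on viral RNA or proteins, had a median of -0.98 over 8 members, of which 6 were called lower. Without the 3 highest barcodes of each library the median was -0.61 over 7 members, of which 4 were called lower. Isg15, a ubiquitin-like protein attached to other proteins, stood at 20.3 CPM (95% interval 17.8 to 22.9) in CD and 12.1 CPM (10.5 to 13.9) in HFD macrophages. The intervals of the 2 levels did not overlap, and the log2 ratio was -0.74 (-1.01 to -0.47). Usp18, the protease that removes Isg15 and dampens the type I receptor, had 67 UMIs or 5.45 CPM in CD and 46 UMIs or 2.69 CPM in HFD, giving a log2 ratio of -1.02 (-1.59 to -0.45). Oasl2, of the oligoadenylate synthetase family, stood at 16.7 CPM in CD and 8.67 CPM in HFD, with a ratio of -0.94 (-1.26 to -0.63). Its family member Oas1a, which makes the oligoadenylates that activate RNase L, was close to level at 46.1 and 42.7 CPM, with a ratio of -0.11 (-0.27 to 0.05). Mx1, a GTPase that blocks influenza viruses, had 57 UMIs in CD and 35 in HFD, a ratio of -1.18 (-1.83 to -0.55).

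The largest ratios of this group rested on 1 barcode. Ifit3, which binds with its relatives to viral RNA, had 54 UMIs in CD and 10 in HFD, which is a log2 ratio of -2.91 (-4.05 to -1.92). Rsad2, or viperin, which makes an antiviral nucleotide, had 37 and 9 UMIs, a ratio of -2.51 (-3.75 to -1.44). A single CD barcode of 14676 UMIs held 43 of the 54 Ifit3 UMIs and 32 of the 37 Rsad2 UMIs. It also held 13 of the 30 Ifit1 UMIs and 25 of the 249 Isg15 UMIs, in all 144 of the 1272 effector UMIs of the class, or 11.3%, while the next barcode held 10. Its marker content was that of a macrophage, with 762 macrophage-marker, 0 T-marker and 2 B-marker UMIs. The highest HFD macrophage barcode held 14 effector UMIs. Without the 3 barcodes highest in effector UMIs in each library, Ifit3 had a ratio of -0.48 (-1.90 to 0.94), Rsad2 of 0.37 (-1.36 to 2.30) and Ifit1 of 0.14 (-0.80 to 1.11), so these 3 genes gave no difference beyond counting error. Isg15 at -0.61 (-0.90 to -0.33), Usp18 at -0.87 (-1.47 to -0.28) and Mx1 at -0.96 (-1.63 to -0.31) were still called lower. The median over 26 members at the minimum was then -0.52, with 22 of them below 0.

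**Figure D2:**
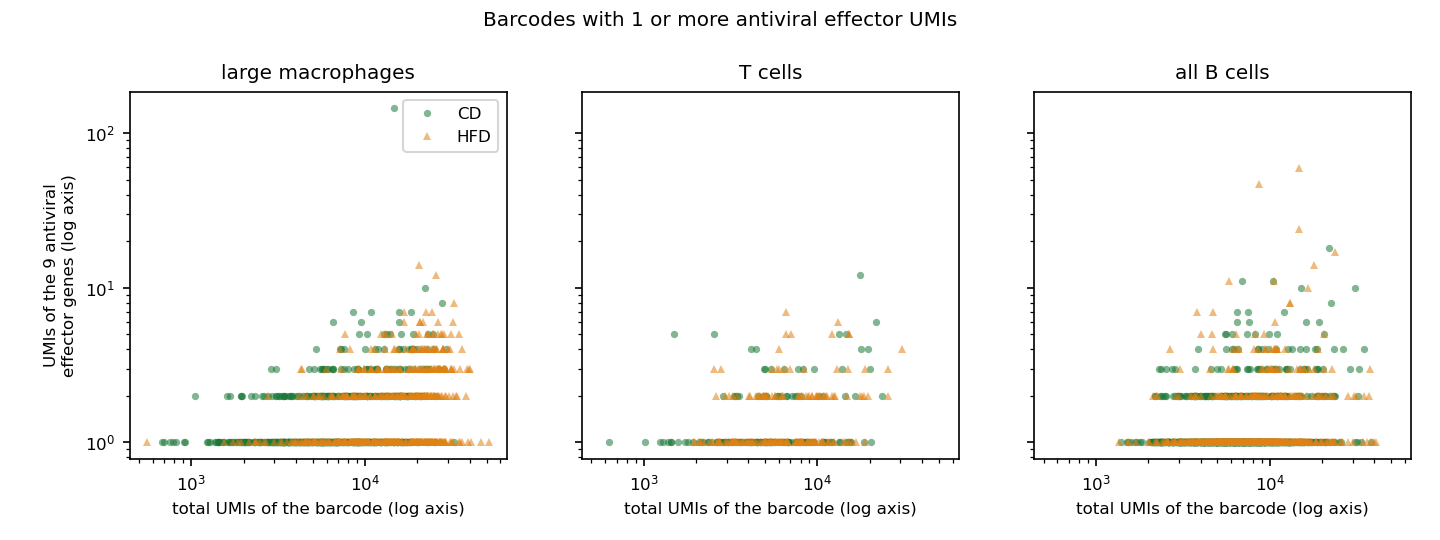
Each point is a barcode with 1 or more UMIs of the 9 antiviral effector genes; the x axis is its total UMIs and the y axis its effector UMIs, both on log axes, in CD (circles) and HFD (triangles). The CD macrophage barcode with 144 effector UMIs stands above all others, and the highest HFD B barcodes, with 59 and 47, stand above the highest CD B barcode, with 18.

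Among the transcription factors, Stat2, the type I signalling factor, was lower, at 14.7 CPM in CD and 8.49 CPM in HFD macrophages, with a log2 ratio of -0.79 (-1.12 to -0.47). Irf1, which interferon gamma induces strongly, stood at 43.7 and 30.2 CPM, a ratio of -0.53 (-0.71 to -0.36) that is short of 1.5-fold. Irf7, the factor that amplifies type I interferon production, was not lower: it stood at 39.9 and 43.7 CPM, a ratio of 0.13 (-0.03 to 0.30). With every barcode thinned to 2000 UMIs the ratio of Stat2 was -0.28, on 39 CD and 23 HFD barcodes with a UMI.

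The PYHIN proteins are sensors of DNA, and Zbp1 senses nucleic acids in the Z form. Ifi204, found mainly in macrophages here, stood at 36.5 CPM in CD and 27.1 CPM in HFD, a ratio of -0.43 (-0.62 to -0.24). Zbp1 stood at 21.2 and 15.7 CPM, a ratio of -0.44 (-0.69 to -0.19). Neither reached 1.5-fold, although both intervals lie below 0. Ifi209 was called lower at 29.1 and 12.2 CPM, a ratio of -1.25 (-1.50 to -1.001), but it is a gene of B and T cells, and the RNA estimated to come from those classes amounts to 54.4% of its CD and 26.3% of its HFD macrophage level. Ifi213 had 16 UMIs in CD and 6 in HFD, and that estimate, 120% and 102%, covers its whole macrophage level.

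The GTPases that interferon gamma induces, which attack the vacuoles of intracellular pathogens, did not move together. Gbp2 was the only member called higher in macrophages, at 23.6 CPM (21.0 to 26.5) in CD and 43.2 CPM (40.2 to 46.5) in HFD. The intervals lie far apart, and the log2 ratio was 0.87 (0.67 to 1.07), or 1.83-fold. Gbp7 was level at 24.9 and 24.4 CPM, a ratio of -0.03 (-0.24 to 0.19). Igtp stood at 14.6 and 12.1 CPM, a ratio of -0.27 (-0.57 to 0.02). Iigp1 was called lower on few counts, 27 UMIs in CD and 14 in HFD. Gbp4, at 16 and 6 UMIs, was at or below the level estimated from other classes, 119% and 105%. Guanylate-binding proteins and the Ifit, Ifi200 and Oas families have close relatives, and reads shared between copies cannot be checked from the counts.

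The membrane proteins are abundant, so counting error is small for them. Ifitm3, which blocks the entry of enveloped viruses, stood at 2485 CPM (2457 to 2513) in CD and 2040 CPM (2019 to 2062) in HFD macrophages, a ratio of -0.28 (-0.31 to -0.26). Bst2, or tetherin, which holds budding viruses on the cell surface, was level at 211 and 213 CPM, a ratio of 0.01 (-0.06 to 0.09). Ly6e stood at 890 and 624 CPM, a ratio of -0.51 (-0.55 to -0.47), and after subtraction of the RNA estimated from other classes its ratio was -0.07. Ly6a, known as a stem cell antigen, gave 161 and 42.3 CPM and a ratio of -1.93 (-2.05 to -1.80). It is abundant in B cells, and the RNA estimated from other classes amounts to 104% of its CD and 90.1% of its HFD macrophage level, so its macrophage ratio is given as a value of the sum and not of macrophages.

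Of the remaining genes, Ifi27l2a and Rtp4 gave the best counted differences. Ifi27l2a, a small mitochondrial and membrane protein strongly induced by type I interferon, stood at 441 CPM (429 to 453) in CD and 244 CPM (236 to 251) in HFD, a ratio of -0.86 (-0.91 to -0.80). Rtp4, a chaperone of receptors that is also induced by type I interferon, stood at 61.1 CPM (56.8 to 65.7) and 34.5 CPM (31.8 to 37.4), a ratio of -0.83 (-0.98 to -0.67). For both, the intervals of the levels lie far apart. Xaf1, a protein that promotes cell death, stood at 22.9 and 16.9 CPM, a ratio of -0.44 (-0.68 to -0.20). Ifi44 gave 10 UMIs in CD and 1 in HFD, a ratio of -3.80 with an interval from -9.24 to -0.98.

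**Figure D3:**
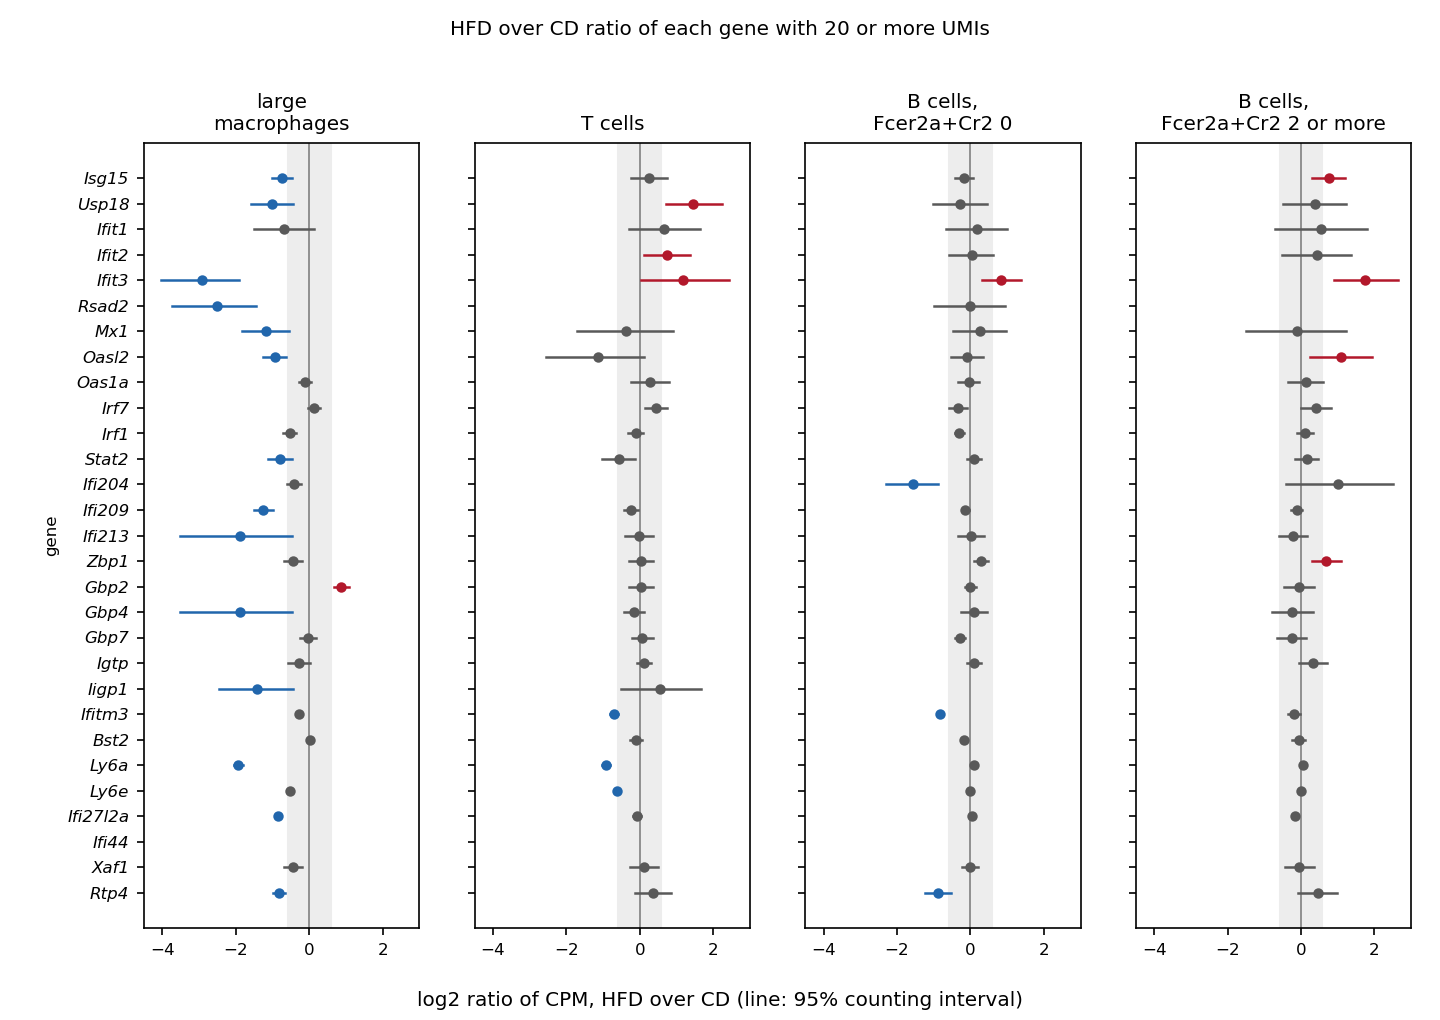
Log2 ratio of HFD over CD for each member with 20 or more UMIs in 4 classes, with its 95% counting interval; blue and red mark members called lower and higher, and the grey band spans 1.5-fold in either direction. In macrophages 24 of 27 points lie left of 0, and in the B and T panels the points scatter around 0.

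The macrophage differences were set beside the technical measures that move with diet. With the RNA estimated from other classes subtracted, and the 6 members left out for which that RNA was 50% or more in a library or which had too few counts, the median over 23 members was -0.60, with 20 below 0 and 12 past 1.5-fold lower, against 8.96% of all genes. Rtp4 then had a ratio of -0.99, Ifi27l2a -0.91, Oasl2 -1.10, Isg15 -0.84 and Gbp2 0.98. Without the barcodes that held more than 2 marker UMIs of another lineage, which left 1203 CD and 961 HFD macrophages, the median over 25 members was -0.84. Without barcodes with a cycling gene it was -0.67. With every barcode thinned to 2000 UMIs the median over 20 members was -0.46, and the same 20 members gave -0.48 before thinning. The macrophage median thus lay below 0 under each of these settings.

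**Figure D4:**
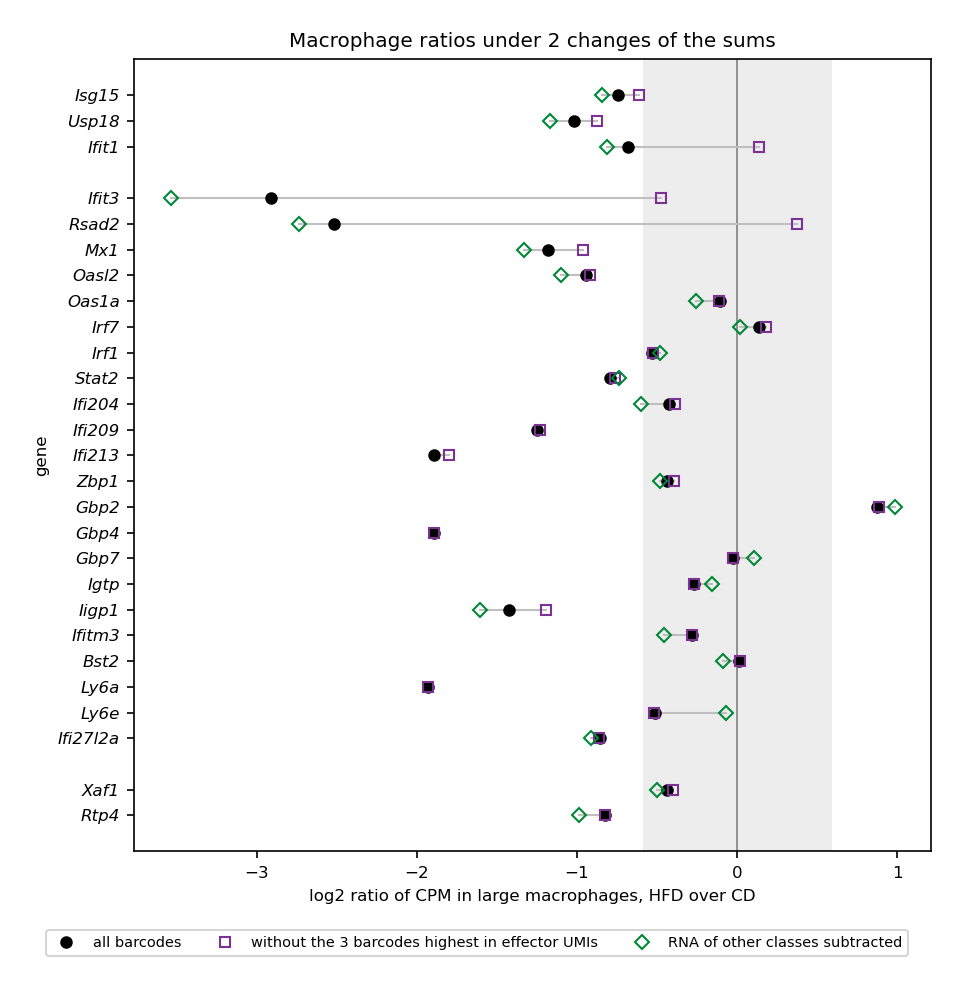
Log2 ratio of HFD over CD in large macrophages for the members with 20 or more UMIs: all barcodes (filled circles), without the 3 barcodes highest in effector UMIs per library (open squares), and with the estimated RNA of other classes subtracted (diamonds, absent where that RNA was 50% or more of a level). Ifit3, Rsad2 and Ifit1 shift to the right without the 3 barcodes, Ly6e shifts towards 0 after subtraction, and Ifi27l2a, Rtp4, Oasl2 and Gbp2 shift little.

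The lower HFD level of a sum of 25 members showed in the distribution over macrophage barcodes. After thinning to 2000 UMIs, the 25 members outside the membrane and surface group summed to a mean of 1.79 UMIs in 1724 CD barcodes and 1.15 in 1233 HFD barcodes. Barcodes with 0 such UMIs were 24.1% (22.1 to 26.2) in CD and 38.8% (36.0 to 41.6) in HFD, and barcodes with 3 or more were 25.9% (23.8 to 28.0) and 12.8% (11.0 to 14.8). For Ifi27l2a alone, thinned barcodes with a UMI were 49.6% in CD and 29.8% in HFD macrophages, against 71.3% and 64.2% before thinning. In all B cells the same 25 members gave means of 1.58 and 1.61 UMIs, and 26.9% and 26.6% of barcodes were at 0. The B-cell RNA estimated in macrophage barcodes, 14.2% of UMIs in CD and 3.01% in HFD, is part of these sums, and its part in the difference was not tested. No class is known to lack these genes, so no background share from a class without them can be given.

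**Figure D5:**
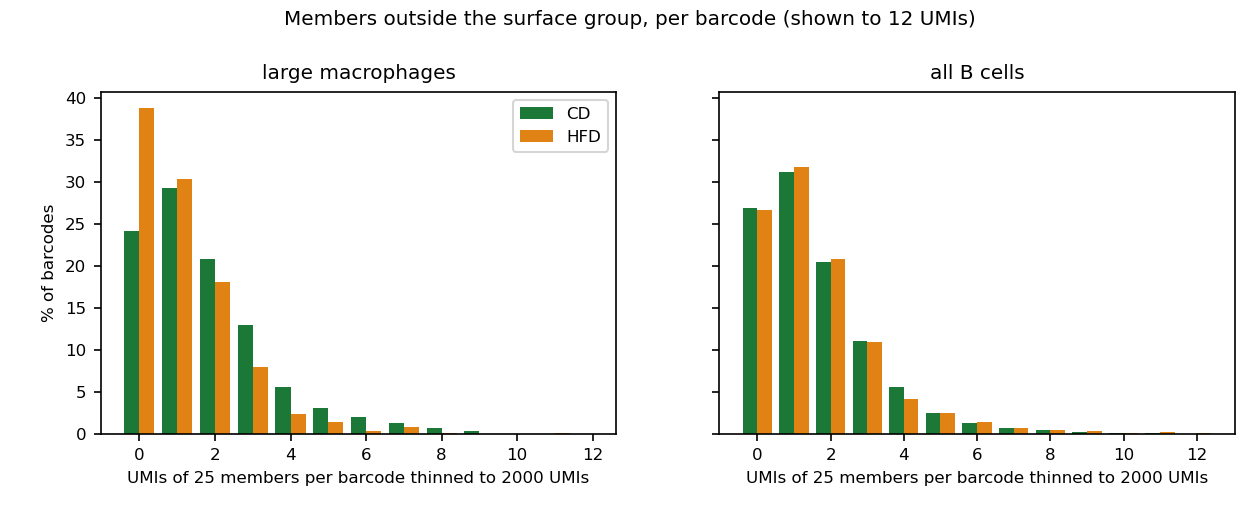
Share of barcodes (y axis, %) by the number of UMIs of the 25 members outside the membrane and surface group (x axis), each barcode thinned to 2000 UMIs, in CD and HFD. The HFD macrophage bars are taller at 0 and shorter at 2 to 9 UMIs, and the CD and HFD bars of all B cells lie close.

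The wider pathway in the macrophage sums moved in the same direction, with exceptions. The lists, like the members, were chosen with earlier results of these data known, so their shares are a description and not independent support. The ratios of the listed genes are those of the sums, with no RNA of other classes subtracted. B-cell RNA was estimated at 14.2% of the CD and 3.01% of the HFD macrophage UMIs, and its part in these ratios was not tested. Among the members, RNA of other classes was estimated at 50% or more of a macrophage level for 4 of the 14 called lower. For the listed genes such an estimate is given below only for Il12a and Il18. Of 107 further genes in 5 lists, 94 reached the minimum and 82 of these had ratios below 0, against 56.6% of all genes. Of the 94, 23 were called lower against 10.9% and 1 higher against 5.57%, and their median was -0.38. Among 40 further genes induced by type I interferon, 38 were counted, 13 were lower and 0 higher, with a median of -0.45. Ifi207, another PYHIN gene, stood at 48.9 CPM in CD and 25.01 CPM in HFD, a ratio of -0.97. Trim30d, a ubiquitin ligase relative, had a ratio of -0.78, while Lgals3bp, a secreted glycoprotein, stood at 208 and 276 CPM, a ratio of 0.41, and Phf11d had 0.27. Among 24 further genes induced by interferon gamma, 22 were counted, 5 lower and 1 higher, with a median of -0.37. Gbp2b stood at 64.5 CPM in CD and 31.3 CPM in HFD, a ratio of -1.04 (-1.20 to -0.88), and Psmb8, an immunoproteasome subunit, had -0.45. Gbp3, a relative of Gbp2b, was the gene called higher, at 38.2 and 66.8 CPM, a ratio of 0.80 (0.65 to 0.96), and Ifi30, a lysosomal thiol reductase, had 0.58. Guanylate-binding protein genes thus differed in direction: Gbp2 and Gbp3 were higher and Gbp2b was lower.

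Of 14 receptor and signalling genes, 13 had ratios below 0 and 2 were called lower, with a median of -0.36. Socs3, a feedback inhibitor of cytokine receptors, stood at 105 CPM in CD and 47.9 CPM in HFD, a ratio of -1.13, and Irf9 had -0.54. The receptor chains Ifnar1 at -0.14 (-0.34 to 0.06) and Ifngr2 at -0.05 (-0.20 to 0.10) did not differ beyond counting error. The phosphatase Ptpn6 had the highest ratio of the list, 0.25. Of 18 sensors and adaptors, 2 were called lower and the median was -0.23. Irf8, a lineage factor of macrophages, stood at 116 and 63.3 CPM, a ratio of -0.87, and the RNA sensor Rigi had -0.49. These ratios too are those of the sums, and the part of B-cell RNA in them was not tested. The DNA sensor Aim2 had 0.14 and the kinase Tbk1 -0.17.

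The interferons themselves were scarcely present in the macrophage, T and B sums. The 2867 CD and 890 HFD kept barcodes in no class were not examined for them. Ifnb1 and the 4 interferon alpha genes of the list had 0 UMIs in the macrophage, T and B sums of both libraries; in macrophages that allows up to 0.244 CPM in CD and 0.176 CPM in HFD. Ifng, made by T and NK cells, had 38 UMIs or 7.90 CPM in CD and 49 UMIs or 11.0 CPM in HFD T cells, a ratio of 0.47 (-0.17 to 1.12), and 1 and 4 UMIs in macrophages. Its level in T cells thus did not differ beyond counting error. The same list holds Il18 and Il12a, which encode interleukin-18 and a subunit of interleukin-12, cytokines that induce interferon gamma. In B cells without Fcer2a or Cr2 both were called higher, Il12a at 5.10 CPM in CD and 16.4 CPM in HFD, a ratio of 1.68 (1.39 to 1.98), and Il18 at 19.4 and 29.2 CPM, a ratio of 0.59 (0.41 to 0.76). In B cells with Fcer2a or Cr2 Il12a stood at 18.2 and 31.2 CPM, a ratio of 0.78 (0.42 to 1.14). In macrophages Il12a had 22 and 11 UMIs, a ratio of -1.47 (-2.67 to -0.37), with 64.0% and 96.2% of its level estimated from other classes, and Il18 at 25.7 and 22.7 CPM did not differ beyond counting error. In T cells Il18 had 40 and 19 UMIs, a ratio of -0.97 (-1.84 to -0.15), with 68.6% and 62.6% estimated from other classes.

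In B cells the set as a whole did not differ between the libraries. Among B cells without Fcer2a or Cr2, which include the innate-like B-1 cells of this cavity, the median over 27 members was -0.01, as it was over all genes; 16 of 27 members were below 0 against 51.6% of genes, 3 were called lower against 5.83%, and 1 higher against 5.21%. The 3 lower members were Ifitm3, at 255 CPM in CD and 144 CPM in HFD with a ratio of -0.83, Ifi204, with 95 and 22 UMIs and a ratio of -1.56, and Rtp4, at 9.42 and 5.14 CPM with a ratio of -0.88. All 3 are macrophage-led genes, and the RNA estimated from other classes amounts to 86.3% of the CD and 70.8% of the HFD level for Ifitm3, 88.0% and 112% for Ifi204, and 59.6% and 40.0% for Rtp4. Lyz2, a macrophage gene, stood at 3467 CPM in CD and 1911 CPM in HFD in these B cells. Ly6a, which B cells do make, stood at 1228 and 1321 CPM, a ratio of 0.10 (0.08 to 0.13), and Ly6e was level at 2567 and 2565 CPM. Zbp1 stood at 19.95 and 24.4 CPM, a ratio of 0.29 (0.11 to 0.47), Stat2 had 0.10, and Irf1, Gbp7 and Irf7 had -0.30, -0.28 and -0.35.

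The effectors of B cells gave no common direction in the larger class. In B cells without Fcer2a or Cr2, 5 of 9 were below 0 and the median was -0.01. Ifit3 was the member called higher in B cells without Fcer2a or Cr2, with 58 UMIs in CD and 71 in HFD, or 2.13 and 3.80 CPM, a ratio of 0.84 (0.32 to 1.36). The 3 neutrophil markers summed to 0.587 CPM in CD, with 2 of them at 0, and to 164 CPM in HFD in this class, S100a9 being highest at 73.2 CPM, and Siglech was at 0 and 0.964 CPM. Their part in the result was not tested. In all B cells it had 91 and 152 UMIs, a ratio of 1.31 (0.93 to 1.71), and Ifit1 had 51 and 52 UMIs, a ratio of 0.60 (0.02 to 1.19). All 9 effectors were above 0 in all B cells, with a median of 0.21; without the 3 highest barcodes of each library 7 of 9 were above 0, Isg15 had -0.01 and Oas1a -0.02, and the median was 0.13. In the sum of all B cells 2 of 27 members were called higher and 2 lower, each against 5.16% of genes, and 12 of 27 were below 0 against 48.7%. The lower members were again Ifitm3 at -0.72 and Ifi204 at -1.02, and the median was 0.01. Of the 1234 effector UMIs in HFD B cells, 3 barcodes held 59, 47 and 24, while the 3 highest of CD held 18, 11 and 11 of 1541. Without these barcodes Ifit3 in all B cells had a ratio of 0.99 (0.58 to 1.41) and Ifit1 of 0.57 (-0.04 to 1.19).

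B cells with Fcer2a or Cr2, markers of conventional B-2 cells, had 4 of 26 members called higher, against 4.2% of genes, and 0 lower, against 2.63%; 11 of 26 were below 0 against 42.3%, and the median was 0.11 beside 0.05 for all genes. Isg15 stood at 11.9 CPM in CD and 20.04 CPM in HFD, a ratio of 0.75 (0.30 to 1.21). Ifit3 had 17 and 42 UMIs, a ratio of 1.73 (0.89 to 2.64), Oasl2 had 21 and 33 UMIs, a ratio of 1.08 (0.25 to 1.94), and Zbp1 stood at 16.0 and 25.7 CPM, a ratio of 0.69 (0.30 to 1.08). Irf7 had 0.40, with an interval that reaches 0. Isg15 and Ifit3 rested on few barcodes: 3 HFD barcodes held 39 of the 95 Isg15 and 21 of the 42 Ifit3 UMIs, and without the 3 highest barcodes of each library the ratios were 0.06 (-0.47 to 0.59) and 0.82 (-0.19 to 1.85). Without barcodes of mixed markers that of Isg15 was -0.058. Of 8 effectors in this class 7 were above 0, with a median of 0.49, 3 called higher and 0 lower. Without the 3 highest barcodes of each library 6 effectors had enough counts. All 6 were above 0, with a median of 0.22, and only Oasl2 was called higher, at 0.89 (0.03 to 1.78). The lowest ratios at 20 CPM or more were those of Gbp7 at -0.26, Ifi213 at -0.21 and Ifitm3 at -0.18, the last with 99.5% and 99.4% of its level estimated from other classes.

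T cells gave no common direction over the whole set. Of 26 members 12 were below 0, against 53.7% of genes, 3 were called lower against 7.83%, and 3 higher against 4.59%; the median was 0.03 beside -0.03 for all genes. Of 8 effectors 6 were above 0, with a median of 0.47, 3 called higher and 0 lower. Without the 3 highest barcodes of each library 6 of 8 were above 0, with a median of 0.49 and 2 called higher. All 4 membrane proteins were below 0, with a median of -0.66. The higher members were effectors at low counts: Usp18 had 22 UMIs in CD and 56 in HFD, a ratio of 1.45 (0.72 to 2.24), Ifit2 had 37 and 57, a ratio of 0.73 (0.11 to 1.37), and Ifit3 had 10 and 21, a ratio of 1.18 (0.03 to 2.43). Without the 3 highest barcodes of each library Ifit3 had a ratio of 1.10 (-0.06 to 2.36) and was no longer called, and Ifit2 had 0.69 (0.05 to 1.34); without barcodes of mixed markers Ifit3 had 0.06. Usp18 did not rest on the highest barcodes, since without those 3 of each library its ratio was 1.46. The lower members were membrane proteins: Ly6a stood at 512 and 269 CPM with a ratio of -0.93, Ifitm3 at 368 and 227 CPM with -0.70, and Ly6e at 1637 and 1060 CPM with -0.63. Their levels estimated from other classes were 65.0% and 37.4% for Ly6a, 46.1% and 37.5% for Ifitm3, and 48.3% and 22.3% for Ly6e, in CD and HFD. Irf7 had the highest ratio among members at 20 CPM or more, 35.8 and 48.4 CPM or 0.44 (0.14 to 0.73), followed by Xaf1 at 0.12 and Igtp at 0.11. The CD T class holds mixed barcodes: its highest effector barcode carried 389 macrophage-marker and 8 T-marker UMIs. Without barcodes of mixed markers, which left 559 CD and 497 HFD T barcodes, the median over 24 members was -0.14.

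Set directly against B cells, the macrophage ratios were lower for most members. The difference of the log2 ratios, macrophages less all B cells, had a median of -0.85 over 26 members and -0.04 over 11974 genes, and 20 of 26 members were below 0 against 54.9% of genes. By size alone it was past 1.5-fold lower for 14 members, against 13.4% of genes, and past 1.5-fold higher for 2, against 7.98%. The intervals of these members also lie on 1 side of 0, but no interval was applied to the shares of genes. Ifit3 had the largest difference, -4.22 (-5.42 to -3.14), followed by Rsad2 at -2.78 (-4.25 to -1.37), both resting on the barcodes named above. Ly6a followed at -2.04, Ifi213 at -1.87 and Gbp4 at -1.84, the genes whose macrophage level is that estimated from other classes, and Mx1 at -1.34 (-2.22 to -0.46). Outside these, Ifi27l2a differed by -0.88 (-0.95 to -0.81), Isg15 by -0.91 (-1.25 to -0.58), Oasl2 by -1.15 (-1.62 to -0.68), Zbp1 by -0.81 (-1.11 to -0.51) and Stat2 by -0.90 (-1.26 to -0.54). Gbp2 differed the other way, by 0.88 (0.64 to 1.11), as did Ifi204, by 0.60 (0.01 to 1.21), whose level in all B cells comes to 100% and 97.3% from other classes by the same estimate. Irf7, Oas1a and Gbp7 gave differences of 0.14, -0.12 and 0.24, with intervals that include 0.

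Without the 3 highest barcodes the median difference was -0.53 over 25 members, and with the RNA of other classes subtracted it was -0.86 over 19. Thinned to 2000 UMIs it was -0.36 over 20 members, where the same 20 gave -0.42 before thinning. The median lay below 0 in each case.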

How the data were processed

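The authors deposited matrices of raw UMI counts per gene and barcode, made with Cell Ranger 8.0.1 per the file headers; build mm39, Seurat 4.3.0 and an older Cell Ranger, 6.0.1, stand in the submitters' processing notes. The deposited contig tables were used only to place barcodes among the B cells. The labels name a 3′ kit. Barcodes entered with 300 or more genes and mitochondrial UMIs of 10% or less, 13069 of 13227 in CD (73549582 UMIs) and 6684 of 6897 in HFD (57630074 UMIs). Of the kept barcodes, 91 and 44 met both the macrophage and the T limits and were left out, and 2867 and 890 fell in no class. B barcodes with exactly 1 Fcer2a or Cr2 UMI, 1085 and 500, enter only the sum of all B cells. No doublets were removed.

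UMIs were summed per class and library and given as CPM with exact Poisson intervals. Ratios carry the exact conditional interval of 2 Poisson counts, and differences between classes that of the 2 by 2 table, replaced by a normal approximation on the log scale where both gene sums exceed 3000 UMIs. Medians cover genes with 20 or more UMIs over both sums. The RNA of another class was estimated, within a library, as the median over its markers of the ratio of the CPM values. Thinning drew 2000 UMIs per barcode (seed 1), which left out 249 CD and 64 HFD macrophages. Calls were checked on simulated Poisson counts of class sums. These hold no clustering of UMIs in few barcodes and no difference in RNA of other classes, so the check does not cover either. Calculations used Python 3.11.15, numpy 2.4.6, scipy 1.17.1, pandas 2.3.3 and matplotlib 3.10.9. In each class the members with the 3 lowest and 3 highest ratios at 20 CPM or more, the 6 with the largest difference between macrophages and B cells, and 2 genes at either end of each wider list were given with their values; other named members follow the order of roles. The members and lists were chosen with earlier results of these data known. Alternatives were 13 planned and 3 added after seeing the data.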

Additional observations from a re-analysis of the deposited data

Results flagged for a closer look

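Ifit3 went in opposite directions in the class sums: its log2 ratio of HFD over CD was -2.91 in large macrophages and 1.31 in all B cells. The libraries have no replicate, so the difference between the classes was not tested beyond counting error. Without the 3 barcodes highest in effector UMIs in each class and library the values were -0.48 and 0.99, and the interval of the macrophage value then included 0.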

How the results depend on the processing

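The macrophage median of -0.74 lay between -0.84 and -0.46 under all 13 planned and 3 added alternatives, the T median between -0.14 and 0.10, that of B cells without Fcer2a or Cr2 between -0.06 and 0.07, and that of B cells with them between -0.01 and 0.24. The difference between macrophages and B cells, with a median of -0.85, moved to -0.36 with barcodes thinned to 2000 UMIs and to -0.32 with the class limits applied to the thinned counts; 20 members had enough counts there, and the same 20 gave -0.42 unthinned. Isg15 in B cells with Fcer2a or Cr2, called higher at 0.75, had -0.058 without barcodes of mixed markers; the cause was not tested. No paired analysis was possible because each diet has 1 library. Few UMIs limit Ifit1, Ifit2, Rsad2, Mx1, Iigp1, Gbp4, Ifi213 and Ifi44 in macrophages and most effectors in T cells.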
